A study of Schizosaccharomyces pombe with 87 samples.

Results

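Untranslated regions (UTRs) are the stretches of a messenger RNA before and after its coding sequence. The UTRs described here are the five_prime_UTR and three_prime_UTR records on chromosomes I, II and III of the all-chromosomes annotation of fission yeast, Schizosaccharomyces pombe, whose parent is an mRNA record. They number 9417 of 58359 records, 4630 of the 5' UTR and 4787 of the 3' UTR. The annotation holds 5121 mRNAs of 5113 genes on these chromosomes, of which 211 have no UTR record. A further 4 UTR records have a pseudogenic transcript as parent and were left out. Pieces were summed per mRNA, so a length is that of the spliced 5' UTR (leader) or 3' UTR (tail) in nucleotides (nt).

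The series to which the annotation belongs profiled H3K9me2 and H3K9me3, the methylation marks of heterochromatin, by chromatin immunoprecipitation and sequencing. Its labels describe 87 libraries, 48 immunoprecipitated and 39 input, from cells grown in YEA at 32 °C to log phase. A set of 56 libraries labelled ectopic covers the single deletions clr4Δ and swi6Δ, the double deletions mst2Δ set1Δ, swi6Δ set1Δ and swi6Δ mst2Δ, the triple deletion swi6Δ mst2Δ set1Δ, and wild type. A set of 31 labelled endogenous covers the swi6Δ genotypes and wild type. No label says which strains the annotation describes. The files used here hold positions and no counts, so sequencing depth is unknown, no genotype is compared, and each length is a single annotated value with no replicate. All shares and medians below are over whole sets of annotated mRNAs and are descriptions without a test.

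In eukaryotes the small ribosomal subunit usually loads at the capped 5' end and scans the leader for a start codon, so an AUG in the leader can be met before that of the main reading frame. The tail carries the signals for cleavage and polyadenylation and many of the sites through which RNA-binding proteins act on stability, translation and localisation. Fission yeast has many short introns, and its compact genome places many genes tail to tail.

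The sequences that follow were read from RefSeq (ASM294v3) by RefSeq's own coordinates and are written as DNA, 5' to 3' along the mRNA. The first set shows the last bases of leaders that range from very short to the longest, with the annotated start codon in capitals. They are the ribosomal protein genes rps1602 (chrI:1711065-1711079, minus strand) and rpl1603 (chrII:3443255-3443269, plus strand), the glycolytic gene tdh1 (chrII:2807625-2807639, plus strand), swi6 (chrI:1703999-1704013, minus strand), ste11 (chrII:3985574-3985588, plus strand) and zfs1 (chrII:3484666-3484680, minus strand).
rps1602: caggagccaaccATG
rpl1603: aaaacaaatattATG
tdh1: acttgattcaaaATG
swi6: gacaagtgaaaaATG
ste11: cttctctacacaATG
zfs1: attcttttaaccATG

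The second set shows, for the 4 genes deleted in the study's strains, the last ATG within the leader that lies more than 12 nt before the start codon, in capitals. These lie in swi6 (chrI:1704050-1704076), mst2 (chrI:2366863-2366889), set1 (chrIII:415553-415579) and clr4 (chrII:458364-458390), all on the minus strand, and begin 63, 44, 40 and 331 nt before the start codon in that order.
swi6: aacgcgaaattgATGtttagtactttt
mst2: attaggaaaactATGaacgatctgtaa
set1: tgttttgatcgaATGcctgggatttgc
clr4: aactgttataacATGaattggcattgc

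The third set shows the borders of introns that lie within UTRs. Capitals mark the first 6 bases of the intron in donors, and the last AG of the intron and any CTAAC, the core of the branch point, in acceptors. The leader introns are those of the mitotic phosphatase gene cdc25 (chrI:482274-482291 and chrI:482180-482207, minus strand) and of atf1 (chrII:1546459-1546476 and chrII:1547298-1547325, plus strand), and the tail intron is that of pmt3 (chrII:2510120-2510137 and chrII:2510142-2510169, plus strand).
cdc25 donor: aaagttGTAAGTttaaaa
cdc25 acceptor: caagtaCTAACtgctggttcAGtgattt
atf1 donor: aaatagGTATGTgtttat
atf1 acceptor: catCTAACtaattctcgtctAGagcctc
pmt3 donor: ttccagGTATGTgctata
pmt3 acceptor: taaactattgacaaaacgttAGaattta

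The last set shows the final 30 nt of 3 tails that hold AATAAA, the canonical polyadenylation signal of animals, in capitals: set1 (chrIII:412293-412322, minus strand), the histone H4 gene hhf1 (chrI:4698773-4698802, minus strand) and the amino acid permease gene meu22 (chrII:3239038-3239067, minus strand).
set1: taacagaatAATAAAcaaaagacttttgac
hhf1: cacactttAATAAActtaattatcacgttt
meu22: taattaattaAATAAAaatttttgaggtta

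Most mRNAs had both UTRs, and the tail was usually the longer. A leader was annotated for 4522 of 5121 mRNAs (88.3%) and a tail for 4732 (92.4%). Both were present in 4344 mRNAs (84.8%), a leader alone in 178 (3.48%), a tail alone in 388 (7.58%) and neither in 211 (4.12%). The mRNAs with neither had a median coding length of 504 nt, against 1188 nt for those with both.

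Leaders had a median length of 97 nt, with quartiles of 41 and 210 nt and a range of 2 to 2778 nt. Tails had a median of 261 nt, with quartiles of 149 and 466 nt and a range of 3 to 5911 nt. Leaders of at most 20 nt were common, at 451 (9.97%), whereas only 20 tails (0.423%) were that short. At the other end, 67 leaders (1.48%) and 429 tails (9.07%) exceeded 1000 nt, and 5 leaders and 126 tails exceeded 2000 nt. In all, leaders summed to 769695 nt and tails to 2021496 nt. Over mRNAs with both, the median share of the spliced transcript was 5.83% for the leader, 16.8% for the tail and 72.9% for the coding sequence, each median taken on its own.

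**Figure D1:**
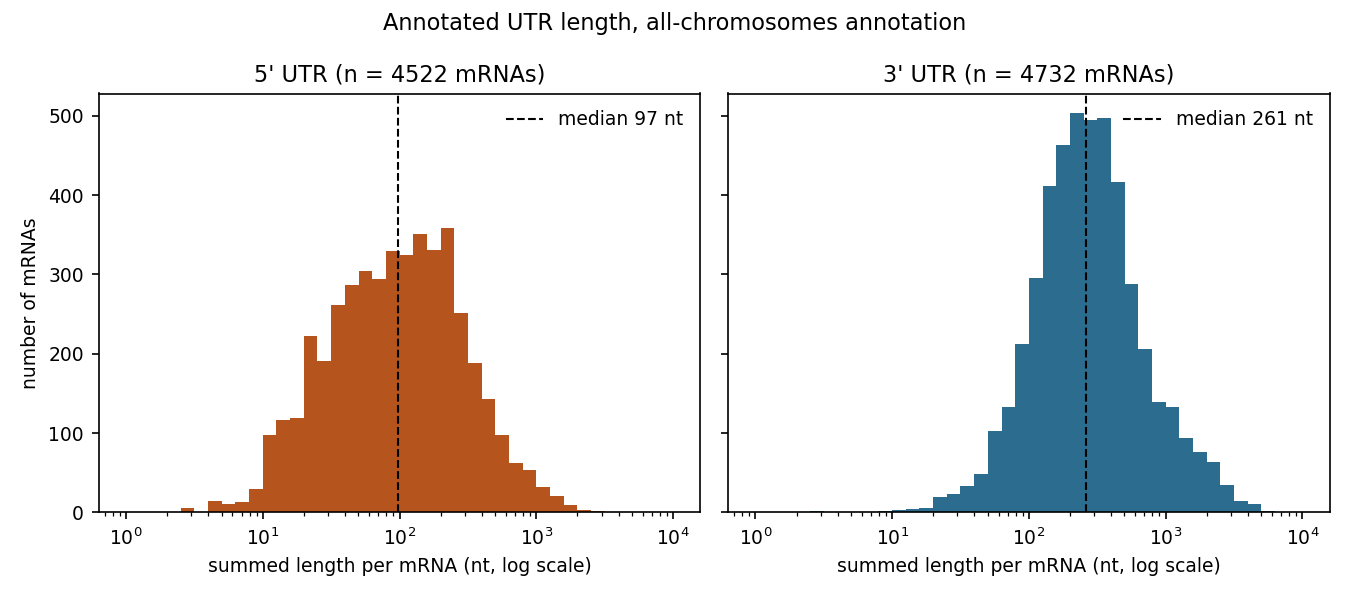
Number of mRNAs (y axis) by summed UTR length in nt (x axis, log scale) for 5' UTRs (left) and 3' UTRs (right), with the median as a dashed line. The leaders centre on 97 nt and spread widely towards short lengths, while the tails form a narrower peak around 261 nt.

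Within an mRNA the 5' minus 3' difference had a median of -139 nt, with quartiles of -336.25 and -12 nt. The leader was the longer in 1003 of 4344 mRNAs (23.1%), the tail in 3334 (76.7%), and both were equal in 7. A leader at least 10 times as long as the tail was found in 31 mRNAs, and a tail at least 10 times as long as the leader in 868. Across mRNAs, leader and tail length were nearly unrelated, with a Spearman rho of 0.0897 over the 4344 with both. The rho with coding length was 0.190 for leaders (4522 mRNAs) and -0.0992 for tails (4732 mRNAs). Genes are not independent replicates, so these are descriptions. A tail longer than its own coding sequence was found in 594 mRNAs (12.6%) and such a leader in 44 (0.973%).

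The chromosomes differed more in tails than in leaders. Median leader length was 101 nt on chromosome I, 89 nt on II and 105.5 nt on III. Median tail length was 251 nt on chromosome I, 253 nt on II and 326 nt on III. The share of mRNAs with a leader lay between 87.6% and 88.8% on the 3 chromosomes, and that with a tail between 91.7% and 93.1%.

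The 12 longest leaders included those of genes that act in mating, meiosis and stress, of transporter genes and of protein kinase genes. The longest, 2778 nt, was that of zfs1 (II:3491208-3493985 in the all-chromosomes annotation, minus strand), which encodes a zinc finger protein that destabilises mRNAs. It was followed by msa1 at 2586 nt (I:2320240-2322825, minus strand), which encodes an RNA-binding protein, and by the uncharacterised SPAC57A7.05 at 2271 nt. The leader of ste11, the transcription factor that switches on the mating and meiosis programme, was 2210 nt (II:3989915-3992124, plus strand), and that of the flocculin gene gsf2 was 2040 nt (III:962166-964205, minus strand).

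The kinase gene ppk33 and SPCC777.03c, of the cysteine desulfurase family in RefSeq, each had a leader of 1901 nt. The leader of hsr1, a stress transcription factor, was 1838 nt. The permease gene meu22 had 1788 nt, the hexose transporter gene ght4 1783 nt, the kinase gene oca2 1771 nt and mei2, the RNA-binding inducer of meiosis, 1733 nt. All 12 of these leaders were in 1 piece.

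Among the same 12 mRNAs the tails were short to moderate, between 57 nt in mei2 and 606 nt in zfs1. The largest 5' minus 3' differences were 2440 nt in msa1, 2172 nt in zfs1, 2035 nt in SPAC57A7.05, 1958 nt in gsf2 and 1802 nt in ste11. The leaders of SPCC777.03c and meu22 overlapped an mRNA on the other strand, of dip5 and SPBC19F8.05, and the other 10 overlapped none.

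None of the 12 longest tails belonged to a gene with one of the 12 longest leaders, and those whose neighbours are named here overlapped an mRNA on the other strand. The longest, 5911 nt, was that of prp17 (II:2660024-2665934, plus strand), a splicing factor gene whose leader is 52 nt. It overlapped the mRNA of fab1. The uncharacterised SPCC320.06 had a tail of 5636 nt (III:151134-156769, minus strand) that contained the whole mRNA of mde7, after a leader of 13 nt. The tail of alp41, a tubulin folding gene, was 4918 nt in 2 pieces and overlapped mug62, after a leader of 5 nt.

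The siderophore transporter gene str2 had a tail of 4877 nt that held the whole mRNAs of jmj4 and rpl6 and overlapped apn1. The tail of wdr70, 4497 nt, held the whole mRNAs of lys2 and tit1. Those of prm1 (4473 nt), swi1 (4233 nt), esf2 (4119 nt) and msw1 (4074 nt) overlapped lys1, rad3, lvs1 and peg1 in that order. The tail of cog2 was 4005 nt. The tail of bet4, 4338 nt, held lnp1 and overlapped SPCC1620.06c, and that of sid1, a septation kinase gene, 4006 nt, held inp53. The most negative 5' minus 3' differences were -5859 nt in prp17, -5623 nt in SPCC320.06, -4913 nt in alp41, -4856 nt in str2 and -4359 nt in wdr70.

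Overlap with the other strand was frequent among all tails. Of 4732 tails, 1834 (38.8%) overlapped an mRNA of another gene on the other strand and 673 (14.2%) reached its coding sequence. Of 4522 leaders, 308 (6.81%) overlapped such an mRNA and 34 (0.752%) its coding sequence. Overlap with an mRNA on the same strand was rare for leaders, at 165 (3.65%), and for tails, at 159 (3.36%). A whole mRNA of another gene lay within 104 tails (2.20%) and within 0 of 4522 leaders. Among tails over 1000 nt, 361 of 429 (84.1%) overlapped an mRNA on the other strand, 349 (81.4%) reached its coding sequence and 93 (21.7%) held a whole mRNA. Among leaders over 1000 nt, 5 of 67 (7.46%) overlapped an mRNA on the other strand. A longer region has more room to overlap a neighbour, and length was not adjusted for.

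**Figure D2:**
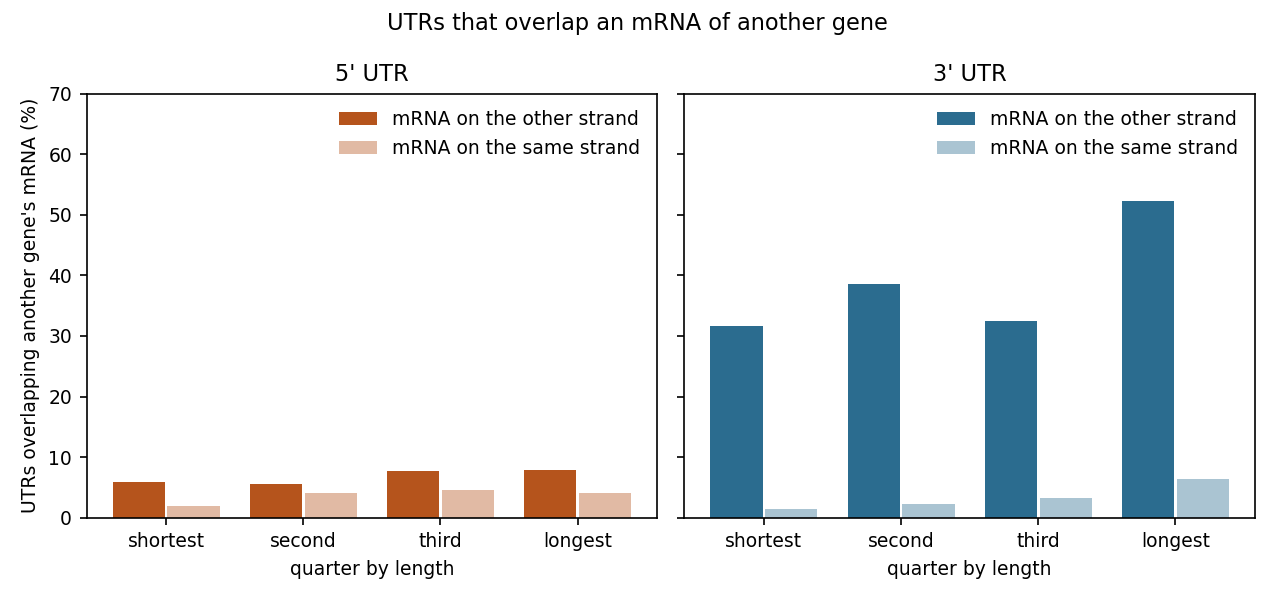
Percent of UTRs that overlap an mRNA of another gene (y axis) in 4 length classes of equal size (x axis), for 5' UTRs (left) and 3' UTRs (right), by the strand of the other mRNA. In the longest class 7.96% of leaders and 52.3% of tails overlap an mRNA on the other strand, and in the shortest class 5.93% of leaders and 31.6% of tails do. In the second class 5.57% of leaders and 38.5% of tails do, and in the third 7.79% and 32.5%.

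Non-coding RNA genes were also frequent partners. They overlapped 2561 leaders (56.6%) and 1954 tails (41.3%) on either strand.

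Spliced UTRs were few, and more often leaders than tails. Of 4522 leaders 102 (2.26%) were spliced, and of 4732 tails 53 (1.12%). No mRNA had both spliced, while 2387 of 5121 mRNAs (46.6%) had an intron in the coding sequence. The leaders of mug126, erm1 and tps0 had 3 pieces, as did the tails of vrp1, a verprolin gene, and spt20, which encodes a SAGA subunit. Spliced leaders had a median of 216 nt, against 95 nt for leaders in 1 piece. Spliced tails had a median of 1343 nt, against 260 nt for tails in 1 piece.

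Leader introns were longer than other introns at the upper end. The 105 introns within leaders had a median of 76 nt and quartiles of 56 and 213 nt, and 28 (26.7%) exceeded 200 nt. The 55 introns within tails had a median of 56 nt and quartiles of 46 and 79.5 nt, and 2 exceeded 200 nt. The 5059 coding introns of at least 20 nt had a median of 55 nt and quartiles of 46 and 85 nt, and 308 (6.09%) exceeded 200 nt.

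The longest leader intron, 855 nt, was that of atf1, a stress transcription factor gene with a spliced leader of 589 nt. The longest tail intron, 223 nt, was that of pfd1, a prefoldin subunit gene with a spliced tail of 386 nt. Among the longest spliced leaders were those of a pair of genes that drive entry into mitosis. The leader of cdc25 was 733 nt with an intron of 100 nt, and that of the B-type cyclin gene cdc13 was 659 nt with an intron of 353 nt. Other long spliced leaders were those of the mismatch repair gene pms1 (940 nt), SPCC576.02 (898 nt), SPBC36.11 (793 nt), mpe1 (758 nt) and the mannosyltransferase gene imt3 (683 nt).

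Among spliced tails, that of alp41 was the longest, followed by SPCC11E10.09c at 3422 nt, which overlapped rik1, a gene of the Clr4 complex. The tail of SPCC1620.12c was 3270 nt. The tail of pmt3, the SUMO gene, was 2832 nt and held the whole mRNA of tmf1, and that of the checkpoint kinase gene chk1 was 2615 nt and overlapped meu27. The tails of sei1 (2600 nt), lyr3 (2414 nt), gap1 (2374 nt) and vrp1 (2230 nt) were of similar length, and that of gap1, a Ras GTPase-activating protein gene, held the whole mRNA of cct6. The tail of spt20 was 421 nt.

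Splice borders were mostly canonical, as in the printed examples. Introns began with GT and ended with AG in 103 of 105 cases in leaders, 54 of 55 in tails and 5011 of 5018 in coding sequences. The first 6 bases were GTAAGT in 37.1% of leader introns, 23.6% of tail introns and 27.5% of coding introns. CTAAC lay in the last 40 nt of 42.9% of leader introns, 34.5% of tail introns and 44.4% of coding introns, searched on the strand of the mRNA. It was present near the acceptors of cdc25 and atf1 and did not occur in the window printed for pmt3.

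Gene groups differed widely in leader length and less in tail length. The shortest leaders were those of the translation and protein turnover machinery. Cytosolic ribosomal protein mRNAs had a median leader of 20 nt (135 mRNAs), against 97 nt over all mRNAs, and 69 of them had at most 20 nt. Their median tail was 119 nt (139 mRNAs), against 261 nt. The range of these leaders was 4 nt in rpl702 to 239 nt in rpl3402, and that of the tails 29 nt in rps1602 to 2033 nt in rpl1603, which overlapped apl1. The leader was the longer in 2 of 134. Proteasome mRNAs had a median leader of 25 nt (29 mRNAs), from 11 nt in rpt4 to 333 nt in rpn11, but a median tail of 256 nt. It ran from 57 nt in rpn3 to 1247 nt in pre8.

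Translation factor mRNAs had a median leader of 36 nt (21 mRNAs) and tail of 148.5 nt (20 mRNAs). Their leaders ran from 4 nt in tif212 to 286 nt in tif5, and their tails from 58 nt in eft201 to 614 nt in pab1, which RefSeq annotates as a phosphatase subunit and not as a translation factor. Glycolysis and ethanol enzymes had 60 nt and 200 nt (16 mRNAs each), with leaders from 32 nt in tpi1 to 283 nt in hxk1 and tails from 96 nt in eno101 to 840 nt in hxk1. Mitochondrial ribosomal proteins, by contrast with the cytosolic ones, had medians of 101.5 nt and 267 nt (34 mRNAs each), close to those of all mRNAs. Their leaders ran from 4 nt in mrpl38 to 502 nt in mrpl39, and their tails from 57 nt in mrpl38 to 1864 nt in mrpl24.

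Lists of regulators had long median leaders, as did septum, flocculin and transport genes. Transcription factor mRNAs had a median leader of 383 nt (53 mRNAs), from 3 nt in rsv2 to 2210 nt in ste11, and a median tail of 409 nt (56 mRNAs), from 64 nt in mbx1 to 1802 nt in atf31. Their leader was the longer in 29 of 51 mRNAs (56.9%), against 23.1% over all mRNAs. Cell cycle regulators had 319 nt (25 mRNAs) and 492.5 nt (24 mRNAs). Their leaders ran from 9 nt in the polo kinase gene plo1 to 1298 nt in the cyclin gene cig2, and their tails from 39 nt in the licensing factor gene cdt1 to 1847 nt in cig2.

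Signalling kinases and receptors had 218 nt (34 mRNAs) and 316.5 nt (38 mRNAs). Leaders ran from 12 nt in cgs2 to 1514 nt in git3, the glucose receptor gene, and tails from 97 nt in win1 to 1638 nt in ssp1, which held the whole mRNA of set7. Septum and cell separation genes had 256.5 nt (12 mRNAs) and 404 nt (14 mRNAs). The glucan synthase gene bgs4 had the longest leader among them, 1506 nt, and cfh4 the shortest, 44 nt. Tails there ran from 132 nt in bgs1 to 741 nt in adg3. Flocculins and adhesins had the largest median leader of the 17 lists, 1063 nt over only 7 mRNAs, from 18 nt in pfl5 to 2040 nt in gsf2, with a median tail of 234.5 nt (8 mRNAs), from 82 nt in gsf2 to 360 nt in pfl7.

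**Figure D3:**
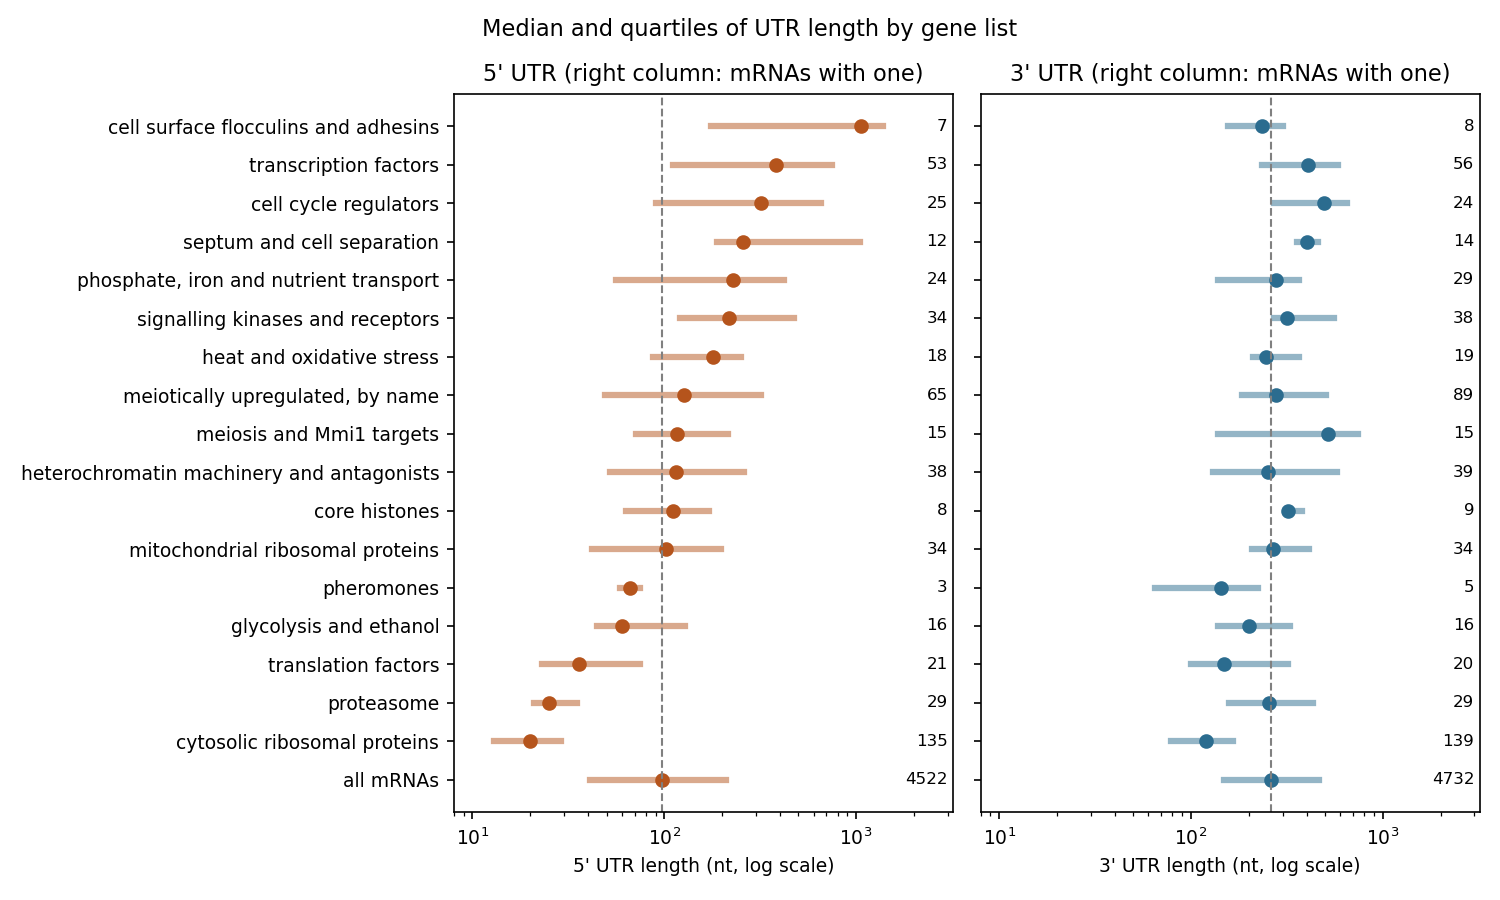
Median (dot) and quartiles (bar) of 5' UTR length (left) and 3' UTR length (right) in nt (x axes, log scale) for 17 gene lists and all mRNAs, with the number of mRNAs at the right and the median of all mRNAs as a dashed line. Median leaders run from 20 nt in cytosolic ribosomal proteins to 1063 nt in flocculins, and median tails from 119 nt in cytosolic ribosomal proteins to 519 nt in the meiosis and Mmi1 list.

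Transport genes had 228.5 nt (24 mRNAs) and 276 nt (29 mRNAs), with leaders from 21 nt in isp5 to 1783 nt in ght4 and tails from 33 nt in ctr4 to 4877 nt in str2. Heat and oxidative stress genes had 180 nt (18 mRNAs) and 246 nt (19 mRNAs), with leaders from 40 nt in gpx1 to 497 nt in ntp1. Their tails ran from 94 nt in hsp104 to 1581 nt in pmp1, which held the whole mRNA of rps1202. Core histones had 111 nt (8 mRNAs) and 321 nt (9 mRNAs), with leaders from 36 nt in hht3 to 259 nt in hta1 and tails from 250 nt in hht2 to 813 nt in htb1.

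Meiosis genes and targets of the Mmi1 elimination pathway had 116 nt and 519 nt (15 mRNAs each). The longest tail there, 2131 nt, and the shortest leader, 26 nt, were both those of rec25, and the shortest tail, 35 nt, was that of rec10. Pheromone genes had 66 nt (3 mRNAs) and 144 nt (5 mRNAs). Their leaders ran from 51 nt in mam1 to 84 nt in mfm1, and their tails from 20 nt in mam1 to 246 nt in mfm2. RefSeq annotates mam1 as the transporter of the pheromone M-factor and not as a pheromone. Genes named mug or meu had 126 nt (65 mRNAs) and 276 nt (89 mRNAs), and only 58.6% of their 111 mRNAs had a leader, against 88.3% over all mRNAs. Among them the tails ran from 23 nt in mug96 to 2724 nt in mug115, and the shortest leader was 4 nt in mug15.

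The heterochromatin machinery and its antagonists had a median leader of 115.5 nt (38 mRNAs) and tail of 253 nt (39 mRNAs). Leaders ran from 4 nt in spf1 to 783 nt in clr2. Tails ran from 30 nt in swd2 to 3401 nt in cid12, which held the whole mRNAs of naa50 and trp663. Of the genes deleted in the strains, swi6, the HP1 gene, had a leader of 97 nt (I:1704002-1704098) and a tail of 609 nt (I:1702406-1703014). The acetyltransferase gene mst2 had 101 nt (I:2366834-2366934) and 1948 nt (I:2363499-2365446), and both overlapped the mRNA of sec3 on the other strand. The H3K4 methyltransferase gene set1 had 420 nt (III:413721-414140) and 472 nt (III:410486-410957). The H3K9 methyltransferase gene clr4 had 363 nt (II:458048-458410) and 2579 nt (II:453996-456574), a tail longer than its coding sequence of 1473 nt that held the whole mRNA of meu6. All 4 lie on the minus strand, and none of their UTRs is spliced.

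Leaders held few start triplets for their base composition. ATG, counted on the strand of the mRNA, occurred 4.73 times per 1000 nt of leader and 18.0 times per 1000 nt of tail. Its reverse complement CAT, which has the same bases, occurred 18.6 and 19.5 times. ATG was present in the last 50 nt of 18.8% of leaders of at least 50 nt and in the first 50 nt of 61.6% of such tails, and CAT in 59.4% and 61.0%. Leaders and tails had near-equal GC content, 32.1% and 32.2%, against 39.6% in coding sequences. At least 1 upstream ATG was found in 1637 of 4509 leaders (36.3%). Of 3637 upstream ATGs, 3139 (86.3%) opened a frame that stopped within the leader, 465 (12.8%) a frame that ran past the start codon out of frame, and 33 (0.907%) were in frame with the coding sequence without a stop.

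The base at position -3, counted back from the A of the start codon, was A in 61.5% of 4489 leaders of at least 6 nt, against 31.8% at position -6. The shares of the lists also count leaders under 6 nt. They were highest in transport genes (87.5%), cytosolic ribosomal proteins (87.4%) and flocculins (85.7%). The lowest were those of pheromone genes (33.3% of 3 leaders), cell cycle regulators (36.0%) and the heterochromatin list (36.8%).

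Among the 12 longest leaders the upstream ATGs were unevenly spread. SPCC777.03c held 42, meu22 32, ght4 29 and ppk33 29, which is 22.1, 17.9, 16.3 and 15.3 per 1000 nt in that order and near the rate in tails. The leader of zfs1 held 3 (1.08 per 1000 nt), ste11 3 (1.36), oca2 2 (1.13), hsr1 3 (1.63) and mei2 3 (1.73). Those of msa1, gsf2 and SPAC57A7.05 held 17, 14 and 8.

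The gene lists also differed in upstream ATGs, of which 36.3% of all leaders held at least 1. Cytosolic ribosomal proteins had one in 1 of 135 leaders, proteasome genes in 0 of 29, core histones in 0 of 8, translation factors in 1 of 21 and glycolysis genes in 1 of 15. Short leaders have less room for one: under 50 nt, 8.38% of all leaders held one. Of the ribosomal protein, proteasome and translation factor leaders, 126, 23 and 13 were that short, in that order, and 0 of each held one. The part of length in the low shares was not tested. Stress genes had one in 1 of 18 and transport genes in 1 of 24, that of ght4, although their median leaders, 180 and 228.5 nt, were longer than that of all mRNAs. Septum genes had one in 3 of 12. Transcription factors had one in 30 of 52 (57.7%), signalling genes in 22 of 34 (64.7%), cell cycle regulators in 12 of 25 (48.0%) and mug or meu genes in 36 of 65 (55.4%). Per length, the rate was 2.36 per 1000 nt in transcription factors, 2.87 in signalling genes and 2.92 in cell cycle regulators, all below the 4.73 of all leaders, and 9.87 in mug or meu genes. In the last 50 nt of leaders at least that long, the share was 12.8% in transcription factors, 4.76% in cell cycle regulators and 29.0% in signalling genes, against 18.8% over all mRNAs. Over whole leaders, mitochondrial ribosomal proteins had one in 12 of 34 (35.3%), against 36.3% over all mRNAs. The shares were 4 of 14 in meiosis genes, 4 of 7 in flocculins and 0 of 3 in pheromone genes.

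The heterochromatin list had the highest share of the 17, 29 of 38 leaders (76.3%), against 36.3% over all mRNAs, at a similar median length. Every one of its 20 leaders of at least 100 nt held an upstream ATG, against 1267 of 2222 (57.0%) over all mRNAs. Of its 9 leaders of 50 to 99 nt 6 did, against 27.2%, and of its 9 leaders under 50 nt 3 did, against 8.38%. Its rate was 8.75 per 1000 nt, against 4.73 over all leaders, and was below the rates of mug or meu genes (9.87) and flocculins (9.60). Of the 144 upstream ATGs of the mug or meu genes, 32 lay in the leader of meu22.

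Within that list the Dicer gene dcr1 held 5 upstream ATGs in 267 nt, and the RNA-dependent RNA polymerase gene rdp1 4 in 232 nt. The anti-silencing gene epe1 held 4 in 496 nt, and the Set1 complex genes ash2 and swd3 4 each, in 460 and 306 nt. The Mst2 complex gene pdp3 held 3 in 167 nt. The swi6 leader held 1, mst2 3 in only 101 nt, set1 3 and clr4 1. In swi6 and clr4 that frame stopped within the leader, and in mst2 and set1 2 of 3 did while 1 ran past the start codon. Leaders without an upstream ATG were all under 100 nt, such as those of red1 (26 nt), leo1 (56 nt) and swd2 (63 nt).

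**Figure D4:**
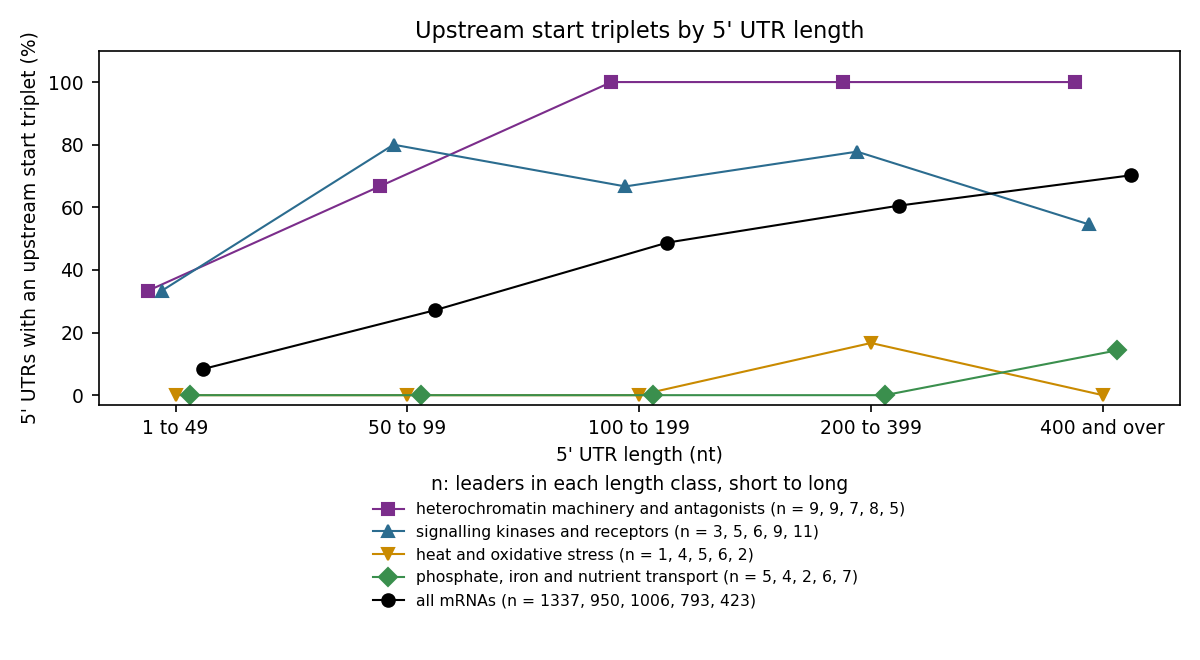
Percent of 5' UTRs that hold an upstream start triplet (y axis) by 5' UTR length class in nt (x axis) for 4 gene lists and all mRNAs, with the number of leaders per class in the legend. In the class of 100 to 199 nt the share is 100% in the heterochromatin list and 48.7% over all mRNAs, and in the stress and transport lists it stays at or under 16.7% in each class.

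On the strand of the mRNA, AATAAA was more frequent at the end of tails than at their start. Among 4133 tails of at least 100 nt it lay in the last 50 nt of 703 (17.0%) and in the first 50 nt of 202 (4.89%). Its reverse complement TTTATT lay in 11.9% and 15.2% of the same windows. Over those 703 tails the median distance from the first base of AATAAA to the end of the tail was 27 nt. The 50 nt window bounds this distance, so the median does not by itself locate the hexamer. In steps of 10 nt over 2965 tails of at least 200 nt, AATAAA was most frequent 16 to 25 nt from the end, at 5.50%. It fell to 0.877% at 186 to 195 nt, where TTTATT had 3.04%, against 2.66% at 16 to 25 nt. The share in the last 50 nt was 13.5% for tails over 1000 nt and 17.4% for tails of 100 to 1000 nt. ATTAAA lay in the last 50 nt of 9.63% of tails and AATGAA in 7.77%, and overlaps between these hexamers were not removed.

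The annotated leader, unlike the tail, depended on which of the deposited annotations was read. The tetarr6 annotation holds 5103 of the same mRNAs. Of 4365 leaders present in both, 28 (0.641%) had the same length, 3577 (81.9%) were shorter in the all-chromosomes annotation and 760 (17.4%) were longer there. The median was 100 nt in the all-chromosomes annotation and 172 nt in tetarr6, and the median difference, all-chromosomes minus tetarr6, was -42 nt. Of 4725 tails present in both, 4708 (99.6%) had the same length. In the shared mRNAs 101 leaders were spliced in the all-chromosomes annotation and 155 in tetarr6, and all 101 were among the 155, while 52 tails were spliced in each. A leader stood in the all-chromosomes annotation alone for 152 mRNAs and in tetarr6 alone for 322. RefSeq gave the same length as the all-chromosomes annotation for 4513 of 4517 leaders and 4732 of 4732 tails.

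**Figure D5:**
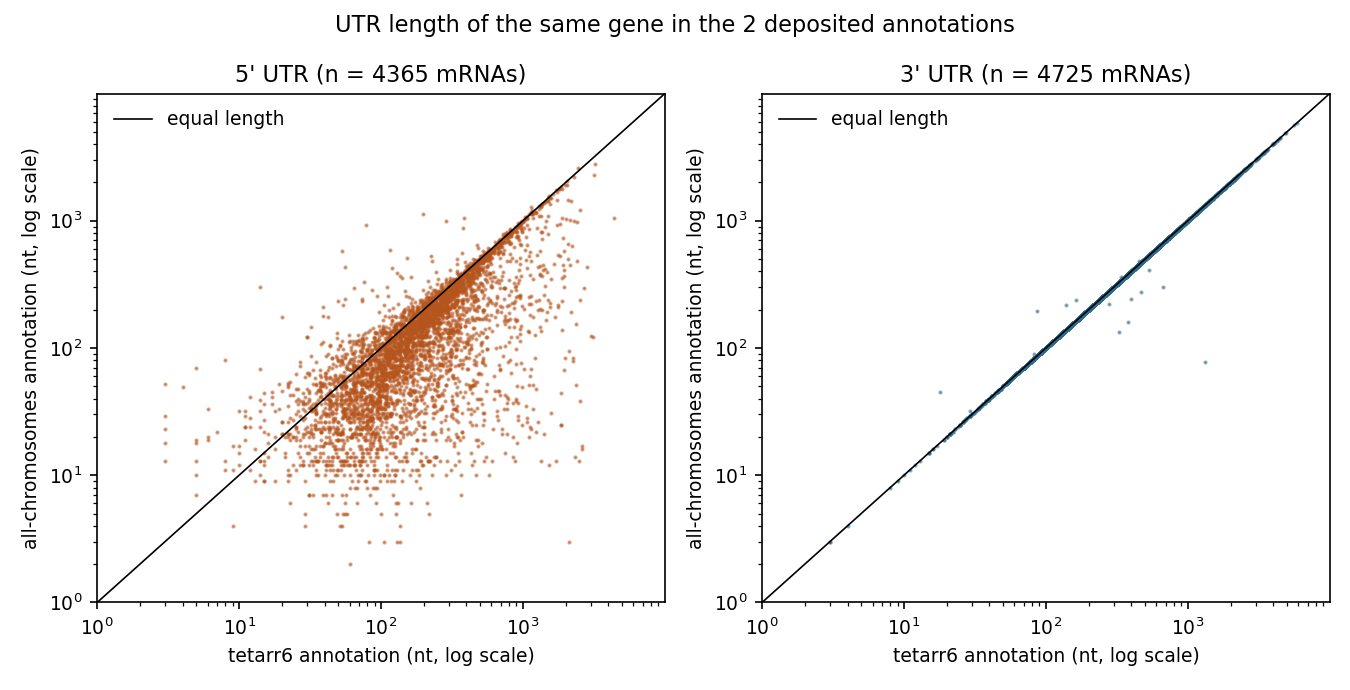
Length in nt of the same gene's 5' UTR (left) and 3' UTR (right) in the all-chromosomes annotation (y axis, log scale) and in tetarr6 (x axis, log scale), with a line of equal length and 1 dot per mRNA. Of the leaders 81.9% lie below the line, while 99.6% of the tails lie on it.

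The shift varied from gene to gene among short and long leaders alike. The leader of prp17 was 52 nt in the all-chromosomes annotation and 558 nt in tetarr6, that of SPCC320.06 13 and 151 nt, and that of rsv2 3 and 2126 nt, whereas tpi1 had 32 nt in both, tif212 4 and 9 nt, and cgs2 12 and 15 nt. Of the 5 longest leaders, zfs1 had 2778 and 3194 nt, msa1 2586 and 2425 nt, SPAC57A7.05 2271 and 3185 nt, ste11 2210 and 2274 nt, and gsf2 2040 and 2042 nt. Among the strain genes, swi6 had 97 and 72 nt, mst2 101 and 275 nt, set1 420 and 512 nt, and clr4 363 and 440 nt. In tetarr6 the shortest median leaders were 68 nt in translation factors, 69 nt in cytosolic ribosomal proteins and 74 nt in the proteasome, and the longest 1181 nt in flocculins and 541 nt in transcription factors, against 172 nt over all mRNAs. The order of other lists changed. Transport genes, at 363 nt, stood above septum genes (345 nt), cell cycle regulators (336 nt) and signalling genes (276 nt). Pheromone genes, below all mRNAs in the all-chromosomes annotation at 66 nt (3 mRNAs), were above them in tetarr6 at 251.5 nt (6 mRNAs). The meiosis list (129 nt), core histones (138 nt) and mitochondrial ribosomal proteins (168 nt), above all mRNAs in the all-chromosomes annotation, were below them in tetarr6. Each list median is over the mRNAs with a leader in that annotation, so the sets differ. Transport genes had 24 such mRNAs in the all-chromosomes annotation and 28 in tetarr6, signalling genes 34 and 38, and flocculins 7 and 9. A change of set was not separated from a change of leader length.

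For 8 genes the annotation holds 2 mRNAs. In mei3, the meiosis inducer gene, the leaders were 221 and 87 nt with the same tail of 738 nt, and in pgr1, the glutathione reductase gene, they were 242 and 56 nt. Of the wtf meiotic drive genes, wtf13 had leaders of 234 and 59 nt, wtf4 of 234 and 56 nt, and wtf19 and wtf23 of 234 and 79 nt each. The wtf genes are close relatives of each other. In crd1 and zas1 both mRNAs had equal leaders.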

How the data were processed

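The labels describe chromatin immunoprecipitation libraries, but the 2 deposited files are genome annotations. The values the authors deposited in them are start and end coordinates (in bp) of features, with no score in any record. PomBase is the source named for the all-chromosomes records, and Geneious 7.1.5 wrote the tetarr6 file, per the file headers. The submitters' processing notes list Trimmomatic and BWA; the build and all settings were not given in the sources used here. With 0 columns of values per library, the planned signal comparison had nothing to run on, no test was made, and depth is unknown.

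Lengths were summed per mRNA, and per gene in tetarr6, in Python 3.11.15, counting each base once. A UTR was called spliced where its pieces were separated by at least 1 nt. The parser was tested on simulated data. Genes were matched between annotations by systematic identifier, ignoring case. Sequences were read from RefSeq (ASM294v3) by RefSeq's own coordinates, for the 5104 of 5121 mRNAs whose UTR lengths, coding length and UTR introns were equal there, because the all-chromosomes annotation describes an edited genome. Intervals in the plots are quartiles, drawn with matplotlib 3.10.9.

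The members and the 17 gene lists were chosen with earlier results of these data known. The genes named are the 12 longest UTRs of each kind, the 10 UTRs of each kind with the most pieces (ties by length), the 5 largest differences in each direction, the longest UTR intron of each kind, the longest and shortest UTR of each list, and the genotype genes. Other genes were named after their values were seen. The neighbour of 1 named gene is not reported here. The alternatives tried were another way of deriving UTRs, RefSeq, tetarr6, 1 transcript per gene, single chromosomes, missing UTRs counted as 0, and a minimum intron of 20 nt.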

Additional observations from a re-analysis of the deposited data

How the results depend on the processing

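Every value rests on where the annotators placed transcript ends. No paired analysis was possible because positions of features carry no replicate, and settings for immunoprecipitated signal were not run. A share or median was taken as moved where it left the 95% interval of the value reported (Wilson for shares, binomial order statistics for medians), and a count where it changed by over 1.5 times. Deriving UTRs from mRNA spans, introns and coding sequence, and taking RefSeq, moved none of the results each was run on. Both are close to the same annotation. The first reads the mRNA, intron and coding sequence records of that annotation, and RefSeq lengths were almost all equal. Neither 1 transcript per gene nor an intron minimum of 20 nt moved a result. Nor did counting repeated records each time or restricting to mRNAs shared with tetarr6, both chosen after seeing the data. Only the 5' minus 3' difference has a sign that could reverse, and it stayed negative under every alternative. With tetarr6, the share with a 5' UTR was 91.6% and with both 89.4%, the median leader 173 nt, the median 5' minus 3' difference -73 nt, the longer leaders 1663 and the spliced leaders 167. Counting missing UTRs as 0 gave medians of 79 nt for leaders and 243 nt for tails. Chromosome I alone gave a median tail of 251 nt and difference of -127 nt. Chromosome II alone gave a median leader of 89 nt and tail of 253 nt. Chromosome III alone gave a share with a tail of 93.1%, a median leader of 105.5 nt, a median tail of 326 nt and a difference of -182 nt. Counts on single chromosomes are smaller because fewer mRNAs are counted: on I, II and III the leader was the longer in 488, 355 and 160 mRNAs, 46, 30 and 26 leaders were spliced, and 20, 24 and 9 tails were. The share of leaders with an upstream ATG fell to 18.8% in the last 50 nt of leaders at least that long and 30.3% in the last 100 nt of leaders at least that long, and that of the heterochromatin list to 41.4% in the last 50 nt, against 18.8% over all mRNAs. Both windows were added after seeing the data. All upstream ATG counts rest on leaders as placed in the all-chromosomes annotation and RefSeq, and tetarr6 leaders were not searched. The median leader of the heterochromatin list was 193 nt in tetarr6 (40 mRNAs), against 115.5 nt (38 mRNAs), so its shares there are unknown.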
